A study of Mus musculus with 25 samples.

Results

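Lactate and monocarboxylate handling was followed through 6 genes chosen by name, and all 6 were found among the 45706 genes of a mouse hypothalamus table and the 44674 genes of a table of mouse brain endothelial cells. Slc16a1, Slc16a7 and Slc16a3 encode the proton-coupled monocarboxylate transporters MCT1, MCT2 and MCT4, which carry lactate, pyruvate and ketone bodies across the plasma membrane. Bsg encodes basigin (CD147), the immunoglobulin-fold partner that brings MCT1 and MCT4 to the cell surface. Ldha and Ldhb encode the subunits of the lactate dehydrogenase tetramer, which interconverts pyruvate and lactate. Glycolytic cells are known for a high proportion of the A subunit and for MCT4, and oxidative cells for the B subunit. In the brain, MCT1 is textbook for blood-brain barrier endothelium and glia and MCT2 for neurons, and lactate made by astrocytes can be passed to neurons.

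The hypothalamus data came from 12-week-old mice of genotype Slco1c1Cre+/-;ROSA26lSlL10aGFP+/- in every group, in which a tamoxifen-inducible Cre under the Slco1c1 promoter switches on a GFP-tagged ribosomal protein L10a. Tamoxifen was given 3 weeks before the tissue was taken, and for the last 3 days the mice ate either high-fat food (HFD) or the control food (CD). Each diet had 4 pools of 4 mice (2 males and 2 females). For each pool number there was an INPUT library, made from total lysate RNA, and an IP library, made from RNA pulled down with the tagged ribosomes (the bacTRAP method). In the second experiment a brain endothelial line of the mouse, cEND, received vehicle (DMSO) or the Glut1 inhibitor WZB117 at 0.5 or 10 µM. There was 1 library per treatment at each of passages 12, 14 and 18, so a cEND group holds 3 passages of a single line rather than independent animals.

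Library totals ran from 27.9 to 42.8 M counts (1e+06 counts each) in the 16 hypothalamus libraries and from 27.3 to 41.3 M in the 9 cEND libraries. The labels call the bacTRAP samples endothelial, and the 12 endothelial markers of a fixed list were all detected and all higher in IP than in INPUT. Their summed share of counts, with ribosomal, mitochondrial and small non-coding RNA set aside, was only 0.00269 to 0.00414% in INPUT and 0.00953 to 0.0153% in IP. The RNA set aside made up 32.6 to 39.2% of counts in INPUT and 7.84 to 10.5% in IP. The 10 astrocyte markers, also all higher in IP, took 0.852 to 1.13% in INPUT and 5.48 to 6.56% in IP. The 10 neuron markers, all lower in IP, took 1.11 to 1.40% in INPUT and 0.358 to 0.516% in IP. In cEND cells the endothelial markers took 0.696 to 0.932% and the astrocyte markers 0.0171 to 0.0218%. Of the 10 astrocyte markers, 2 had 0 counts throughout DMSO, 3 throughout 0.5 µM and 1 throughout 10 µM. Aqp4, the astrocyte water channel, was among those at 0 counts in the DMSO and 0.5 µM groups. In such bulk RNA, fewer cells of a type and less RNA per cell cannot be told apart.

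The genes lie on 5 chromosomes of mouse build GRCm38: Slc16a1 (ENSMUSG00000032902) at chr3:104638668-104658462, Slc16a3 (ENSMUSG00000025161) at chr11:120948480-120960868, Slc16a7 (ENSMUSG00000020102) at chr10:125219270-125389465, Ldha (ENSMUSG00000063229) at chr7:46841475-46855627, Ldhb (ENSMUSG00000030246) at chr6:142490249-142507957 and Bsg (ENSMUSG00000023175) at chr10:79704491-79711969. All 6 are protein-coding genes. RefSeq describes 3 pseudogenes as copies of Ldha and 1 as a copy of Ldhb, and how reads shared with these copies were assigned is not given in the sources used here. Slc16a7 shares 179 exon bases with the predicted gene Gm47862 on the opposite strand, and the sources used here do not say whether counting used the strand.

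The promoter sequences of 3 of the 4 genes matched in the promoter table are shown, each for a result that follows: Ldha had the highest fold change of the 4 genes tested at 10 µM WZB117, Ldhb had the highest of the 6 in the tagged-ribosome RNA, and Slc16a1 was lower at the late passage. Each run is the 250 bases before the start of transcription on the gene's strand, from RefSeq (GRCm38.p6). Capitals mark the letters ACGTG, the core of the hypoxia response element bound by HIF factors, and GCGTG, its common variant, on either strand.

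Ldha (chr7:46845554-46845803, plus strand): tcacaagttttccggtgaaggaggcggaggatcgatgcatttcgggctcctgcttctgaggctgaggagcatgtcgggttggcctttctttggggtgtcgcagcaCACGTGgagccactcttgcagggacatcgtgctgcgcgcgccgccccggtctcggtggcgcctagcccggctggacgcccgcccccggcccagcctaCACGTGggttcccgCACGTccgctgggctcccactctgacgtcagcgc
Ldhb (chr6:142507958-142508207, minus strand): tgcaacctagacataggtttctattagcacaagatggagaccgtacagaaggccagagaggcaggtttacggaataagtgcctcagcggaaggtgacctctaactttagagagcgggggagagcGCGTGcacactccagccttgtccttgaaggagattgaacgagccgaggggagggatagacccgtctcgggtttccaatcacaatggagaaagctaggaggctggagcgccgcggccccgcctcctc
Slc16a1 (chr3:104638414-104638663, plus strand): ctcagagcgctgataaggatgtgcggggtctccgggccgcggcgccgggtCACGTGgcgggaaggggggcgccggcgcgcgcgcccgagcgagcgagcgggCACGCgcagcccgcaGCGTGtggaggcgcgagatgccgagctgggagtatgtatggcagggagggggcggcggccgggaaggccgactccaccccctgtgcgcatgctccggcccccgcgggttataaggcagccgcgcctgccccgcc

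On both strands together, ACGTG was found 5 times in the Ldha window, 34 to 145 bases before the start. A CACGTG, the E-box, holds ACGTG on each strand and so counts as 2 of these matches, and the Ldha window holds 2 of them. The Slc16a1 window holds 1 CACGTG and 2 GCGTG, and the Ldhb window holds a single GCGTG, 126 bases before the start. A separate RefSeq start of Ldha further into the gene had no ACGTG and 1 GCGTG. The window of Slc16a3, matched but not shown, holds 2 ACGTG, 27 and 14 bases before the start. Bsg and Slc16a7 had no entry among the promoters, so their windows were not searched. Among 32851 promoter windows of this length, 16.6% held ACGTG, 28.2% held GCGTG and 6.02% held CACGTG. These matches describe the letters of the windows and no binding was measured.

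The first comparison, of IP against INPUT, asks which of these transcripts were higher or lower in the tagged-ribosome RNA than in total lysate RNA. It is relative, so a transcript lower in IP can still be present there. Of the 6 genes, 4 were higher in IP (Slc16a1, Bsg, Ldha and Ldhb), 1 was lower (Slc16a7) and Slc16a3 missed the threshold, an adjusted p of 0.05 by edgeR's quasi-likelihood test over all genes. The background is wide, since 83.8% of the 17592 genes tested passed in one direction or the other, 41.6% higher and 42.2% lower. The median log2 fold change of the 6 genes was 0.65 and that of all genes tested -0.02. Levels are given as CPM (counts scaled to a library size of 1e+06 with TMM factors), and fold changes as log2 with SE.

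Among the carriers, Slc16a1 stood at 10.7, 9.28, 8.88 and 9.65 CPM in the 4 CD INPUT pools and at 18.02, 17.4, 15.15 and 19.2 CPM in the CD IP libraries. With HFD it read 9.20, 10.1, 7.53 and 9.30 CPM in INPUT and 16.7, 17.65, 12.8 and 17.55 CPM in IP. Every IP library lay above every INPUT library, as was so in one direction or the other for 59.9% of the genes tested. The log2 fold change was 0.85 ± 0.07 (SE; 95% interval 0.69 to 1.00; adjusted p = 7.99e-11), a 1.80-fold difference.

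Slc16a7, the carrier of the highest lactate affinity among these 3, went the other way. It stood at 10.7, 10.7, 8.84 and 9.625 CPM in CD INPUT and at 2.11, 2.09, 2.03 and 2.93 CPM in CD IP. In the HFD pools it was at 11.7, 12.6, 11.2 and 9.28 CPM in INPUT and at 2.58, 1.825, 2.62 and 2.12 CPM in IP. No library of one fraction reached the range of the other, and the log2 fold change was -2.205 ± 0.10 (SE, adjusted p = 4.24e-17). In whole hypothalamus Slc16a1 and Slc16a7 had like CPM, but per kilobase of the longest coding transcript Slc16a1 was 2.40 ± 0.170 times Slc16a7 in CD INPUT (SD, n = 4) and 19.2 ± 2.28 times in CD IP. In the HFD pools the same ratios per kilobase were 2.02 ± 0.340 and 18.2 ± 5.20.

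Slc16a3, the carrier linked to lactate export from glycolytic cells, was near the limit of detection. It had 11, 12, 15 and 15 counts in CD INPUT and 9, 9, 0 and 7 counts in CD IP. In the HFD libraries it had 14, 8, 19 and 20 counts in INPUT and 16, 17, 7 and 14 counts in IP. The library at 0 counts allows up to 0.102 CPM, the level of 3 counts, for counting error only. The log2 fold change of -0.68 ± 0.34 (SE, 95% interval -1.38 to 0.02) had an adjusted p of 0.0681 and did not pass. It passed with DESeq2 (adjusted p = 0.0369), in the CD libraries alone (0.0401) and without the second HFD INPUT pool (0.0361) or the second HFD IP pool (0.0320). In the HFD libraries alone the adjusted p was 0.491, and an adjusted p of 0.0681 does not show that the fractions are alike.

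Bsg, the partner of MCT1, was at 103, 103, 103 and 101 CPM in CD INPUT and at 186, 200.1, 188 and 184 CPM in CD IP. With HFD the INPUT libraries read 109.5, 96, 104 and 97.4 CPM and the IP libraries 175, 205.5, 181 and 160.4 CPM. The fractions did not overlap, and the log2 fold change of 0.86 ± 0.05 (SE, adjusted p = 1.90e-15) was close to that of Slc16a1. Per kilobase, Bsg was 31.0 ± 2.51 times Slc16a1 in CD INPUT and 31.8 ± 3.58 times in CD IP (SD, n = 4), so the ratio of partner to carrier differed by less than its spread. The other immunoglobulin-fold partners of monocarboxylate carriers were both lower in IP, Emb (embigin) by -0.92 ± 0.07 and Nptn (neuroplastin) by -0.50 ± 0.06 on the log2 scale.

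**Figure D1:**
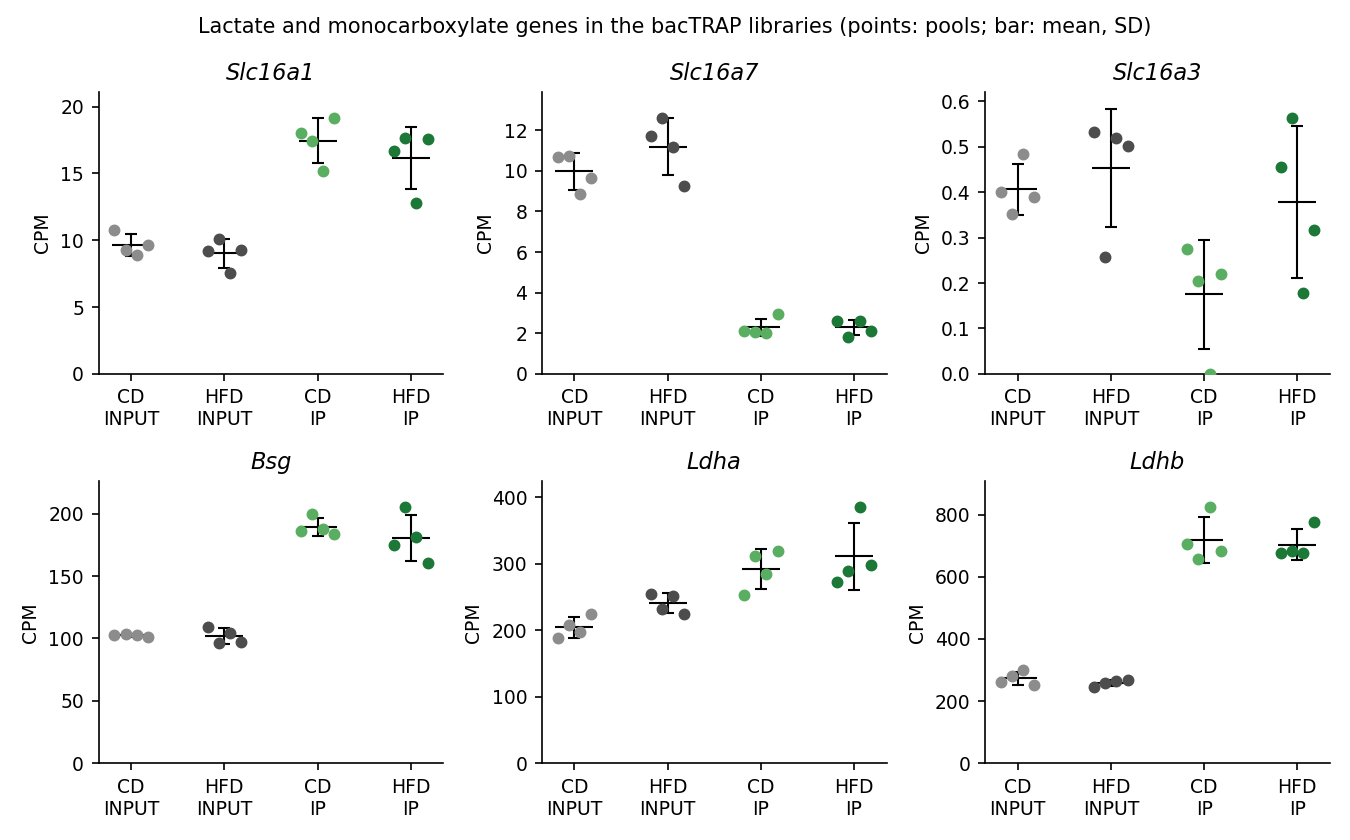
Level of the 6 genes in each hypothalamus library, as CPM on a linear axis from 0 (points, pools; bars, mean and SD of 4). Ldhb, Bsg and Slc16a1 are higher and Slc16a7 lower in every IP library than in every INPUT library, Ldha overlaps narrowly, and Slc16a3 is at most 0.564 CPM.

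The lactate dehydrogenase subunits were both higher in IP, Ldhb by more. Ldha stood at 188, 208, 198 and 225 CPM in CD INPUT and at 253, 312, 285 and 319 CPM in CD IP. In the HFD pools it was at 255, 232, 251 and 225 CPM in INPUT and 273, 289, 386 and 298 CPM in IP. The lowest IP library (253 CPM, CD) lay just under the highest INPUT library (255 CPM, HFD), and the log2 fold change was 0.44 ± 0.07 (SE, adjusted p = 2.01e-06).

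Ldhb was at 259.7, 280.5, 298 and 253 CPM in CD INPUT and at 705, 657, 825 and 683 CPM in CD IP. With HFD the values were 245, 257, 265 and 268 CPM in INPUT and 677, 683, 677 and 777 CPM in IP. The fractions were far apart, with a log2 fold change of 1.42 ± 0.05 (SE, adjusted p = 5.11e-19), or 2.67-fold.

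The subunit balance moved with the fraction. Per kilobase, Ldha made up 34.2, 34.7, 32.3 and 39.0% of the summed Ldha and Ldhb level in the CD INPUT libraries and 20.5, 25.5, 19.9 and 25.1% in CD IP. In the HFD libraries the share was 42.8, 39.4, 40.5 and 37.6% in INPUT and 22.5, 23.3, 29.0 and 21.6% in IP. Every IP library was below every INPUT library in this share, which depends on the transcript lengths used but not on the scaling between libraries. With lengths of all exons together, the ratio of Ldha to Ldhb was 0.357 ± 0.0456 in CD INPUT and 0.195 ± 0.0328 in CD IP (SD, n = 4), against 0.541 ± 0.0690 and 0.296 ± 0.0496 with the longest coding transcript. The shares are described with no test.

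**Figure D2:**
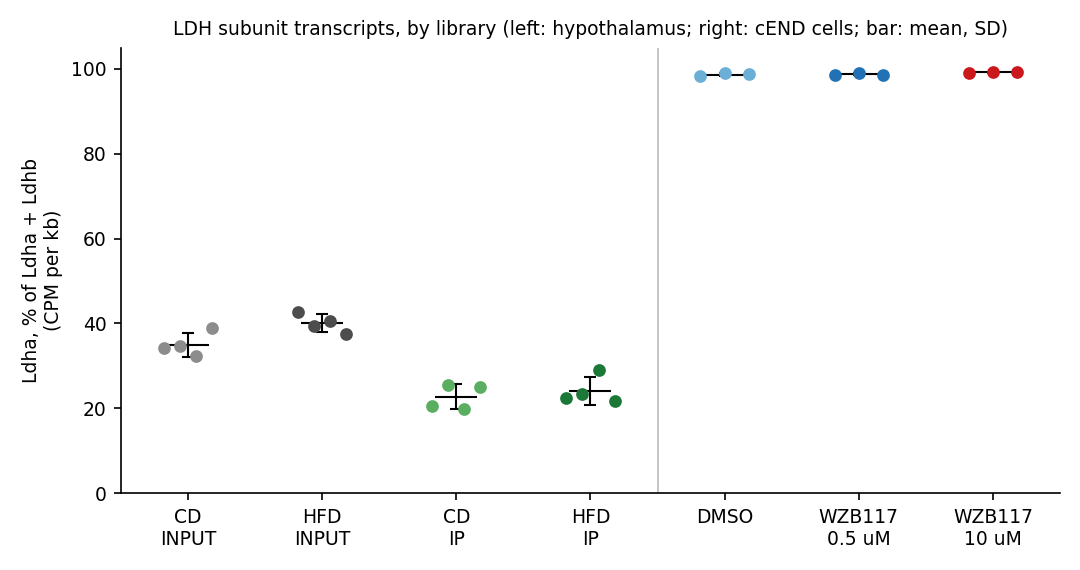
Ldha as a percentage of the summed Ldha and Ldhb level (CPM per kilobase) in every library (points; bars, mean and SD of 4 pools or 3 passages). The share runs from 32.3 to 42.8% in hypothalamus INPUT, from 19.9 to 29.0% in IP and from 98.3 to 99.4% in cEND cells.

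Per kilobase, the order in CD IP was Ldhb (550.2 ± 57.0 CPM per kb), Ldha (161 ± 16.5), Bsg (124 ± 4.74), Slc16a1 (3.94 ± 0.383), Slc16a7 (0.209 ± 0.0389) and Slc16a3 (0.0403 ± 0.0278) (SD, n = 4). The order was the same in CD INPUT, with Ldhb at 209 ± 15.9, Ldha at 113 ± 8.65, Bsg at 67.2 ± 0.702, Slc16a1 at 2.18 ± 0.179, Slc16a7 at 0.908 ± 0.0826 and Slc16a3 at 0.0938 ± 0.0129 CPM per kb. Neighbours in either order were separated by more than their spread with these lengths. With the length of all exons, Ldha and Bsg changed places in CD IP (88.3 ± 9.06 and 104.5 ± 3.99 CPM per kb). In CD INPUT their libraries overlapped with that length (61.8 ± 4.74 and 56.5 ± 0.591 CPM per kb).

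The genes of neighbouring pathways are given by lists of their known members. Of 10 other SLC16 carriers tested, 4 were higher and 5 lower in IP. Slc16a9, which carries carnitine and creatine, was 2.26 ± 0.09 higher on the log2 scale, while Slc16a10, which carries aromatic amino acids, was -2.48 ± 0.17 and Slc16a14 -1.56 ± 0.10. Of 14 genes of mitochondrial pyruvate entry and use, 10 were higher and 3 lower (median log2 fold change 0.48). Pdk2 and Pdk4, kinases that inhibit pyruvate dehydrogenase, were higher by 1.78 ± 0.04 and 2.21 ± 0.05, and Mpc1, a subunit of the mitochondrial pyruvate carrier, by 1.75 ± 0.05.

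All 5 genes of ketone body use and synthesis were higher (median 0.91), among them Bdh1, the mitochondrial hydroxybutyrate dehydrogenase, by 1.29 ± 0.06 and Oxct1, which activates acetoacetate for oxidation, by 0.91 ± 0.05. Of 15 glycolysis genes 14 were higher and 1 lower (median 0.29), and those of smallest p were the aldolase Aldoc (2.72 ± 0.06), Pfkm (1.67 ± 0.05) and Eno1 (1.34 ± 0.05). Ldhd, the D-lactate dehydrogenase of mitochondria, was -0.57 ± 0.07. Slc5a8, a sodium-coupled lactate carrier, was 1.47 ± 0.46 and Hcar1, the lactate receptor, -1.78 ± 0.48. Of the list that holds Slc5a8 and Hcar1, 1 gene passed the filter on low counts in the IP libraries alone and 1 in the INPUT libraries alone. The filter can set the direction of a gene that passes through 1 fraction, so no conclusion is drawn from these 2 values. The shuttles that carry reducing power into mitochondria were split, with 3 of 10 higher and 5 lower: Got1 and Got2, the aspartate aminotransferases, were -1.17 ± 0.04 and -1.05 ± 0.05, while Gpd2 was 1.35 ± 0.05. Aldoc is also on the astrocyte marker list. Beside these differences the summed astrocyte markers were higher and the summed neuron markers lower in IP by the amounts given above. Other marker lists moved as well from CD INPUT to CD IP (mean shares of counts): oligodendrocyte from 0.410 to 0.0816%, microglia from 0.0310 to 0.00303%, erythroid from 0.00837 to 0.00134%, pericyte and smooth muscle from 0.00806 to 0.00250%, tanycyte and ependymal from 0.00259 to 0.00491% and choroid plexus from 0.00211 to 0.0132%. The part of these cell types in the differences was not tested.

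**Figure D3:**
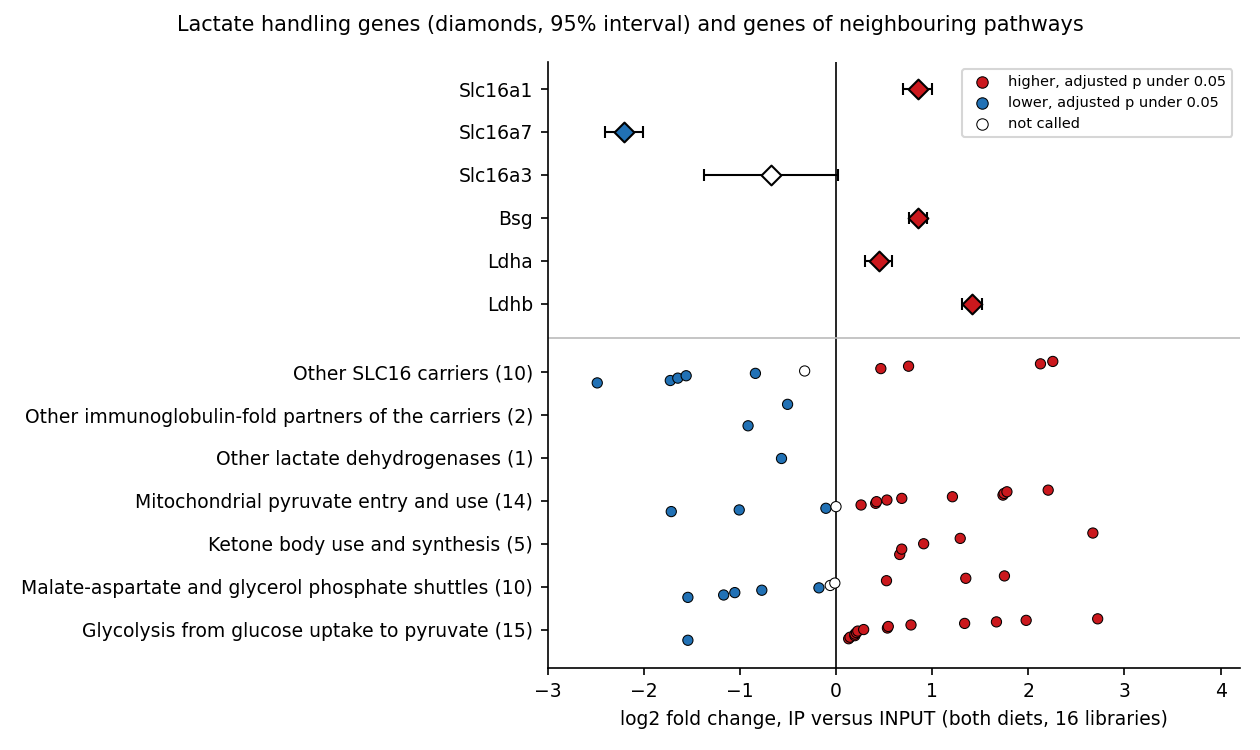
Log2 fold change of IP versus INPUT over 16 libraries for the 6 genes (diamonds, 95% interval) and for each tested gene of 7 neighbouring lists (circles, number tested in brackets); red and blue passed an adjusted p of 0.05. Slc16a7 lies at -2.205 and Ldhb at 1.42, and of the lists with more than 2 genes, the ketone list is the only one in which every gene is higher.

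HFD was compared with CD within each fraction, the study's question being what 3 days of the diet change in these cells. None of the 5 genes tested in IP passed, where 14 of 15858 genes did (0.0883%, of which 0.0378% higher and 0.0504% lower). None of the 6 tested in INPUT passed, where 6 of 16879 did (0.0355%, of which 0.0237% higher and 0.0118% lower). DESeq2 also called none of them, and at an unadjusted p under 0.05 (edgeR) there was 1, Ldha in INPUT. In IP, Slc16a1 had a mean of 17.4 ± 1.69 CPM with CD and 16.2 ± 2.30 with HFD (SD, n = 4), with a 95% interval of the log2 fold change from -0.32 to 0.13. The intervals in IP were -0.37 to 0.41 for Slc16a7, -0.11 to 0.33 for Ldha, -0.18 to 0.16 for Ldhb and -0.21 to 0.10 for Bsg. Differences within these bounds remain compatible with the IP libraries, so the lack of a call does not show that the diets are alike. The CD and HFD libraries of each of the 5 genes overlapped, where 6.24% of all genes tested did not. Slc16a3 was filtered out of that fit for low counts.

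Ldha in INPUT was the nearest to a call. The HFD pools, 225 to 255 CPM, were all above the CD pools, 188 to 225 CPM, but the closest pair differed only in the fourth digit (224.8 against 224.7 CPM). Such a separation was seen for 4.54% of the genes tested there. The log2 fold change was 0.24 ± 0.06 (SE, 95% interval 0.11 to 0.36) with an unadjusted p of 0.00102 and an adjusted p of 0.271 (edgeR), and the adjusted p was 0.0894 with DESeq2 and 0.0120 when no filter on low counts was applied. In the same libraries the summed endothelial markers ran from 0.00269 to 0.00340% with CD and from 0.00325 to 0.00414% with HFD, and their part in it was not tested.

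The other INPUT values were smaller against their errors: Slc16a7 0.17 ± 0.10, Slc16a3 0.16 ± 0.34, Slc16a1 -0.09 ± 0.10, Ldhb -0.08 ± 0.06 and Bsg -0.01 ± 0.05 (log2 fold change, SE). The diet effect of Ldha was 0.11 ± 0.10 in IP, and the difference between its effects in the 2 fractions was -0.14 ± 0.13 (adjusted p = 1.00 after rounding, edgeR interaction term). No gene passed that interaction test among 17592 by edgeR, with 755 at an unadjusted p under 0.05 and 4 calls by DESeq2. None of the genes tested from the neighbouring pathway lists passed in either fraction. The nearest were in IP: Slc2a1, which encodes Glut1, at -0.32 (adjusted p = 0.161) and Pdp2, a phosphatase that activates pyruvate dehydrogenase, at -0.29 (adjusted p = 0.166).

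In cEND cells the same genes had another order. Per kilobase, DMSO cells held Ldha at 474 ± 76.4, Bsg at 157 ± 10.8, Slc16a1 at 25.0 ± 3.63 and Ldhb at 6.27 ± 0.524 CPM per kb (SD, n = 3 passages), each separated from the next by more than its spread. Ldha was 98.3, 99.0 and 98.7% of the LDH subunit level at passages 12, 14 and 18. Slc16a7 had 1 count in 1 library, DMSO at passage 18, and 0 counts in the other 8, which allows at most 0.106 CPM in any of these. Slc16a3 had 1 count in DMSO at passage 12, 0 counts in the other DMSO libraries and 0 counts in all 3 libraries at 0.5 µM. The hypothalamus and cEND tables were scaled separately, so their levels are set side by side and not tested.

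WZB117 was used to ask how these endothelial cells respond when Glut1 is inhibited. At 10 µM, Ldha and Bsg stood above DMSO in all 3 passages, and Slc16a1 and Ldhb did not. The libraries grouped by passage (same-passage libraries deviated together, with correlations of 0.558 to 0.833 across 11581 genes), so each value is given without and with passage as a block. Without the block none of the 4 genes tested passed, where 197 of 15466 genes did (1.27%), and with it Ldha and Bsg passed, where 2864 did (18.5%, 9.23% higher and 9.29% lower).

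Ldha was at 707, 977 and 897 CPM in DMSO at passages 12, 14 and 18, and at 1325, 1465 and 1353 CPM with 10 µM WZB117 in the same order. All 3 treated libraries were above all 3 DMSO libraries, as was so in either direction for 15.6% of genes. Within a passage the log2 ratio was 0.91, 0.58 and 0.59. The log2 fold change was 0.68 ± 0.16 (SE, adjusted p = 0.102) without the block and 0.70 ± 0.07 (95% interval 0.55 to 0.84, adjusted p = 1.78e-07) with it. DESeq2 without a block also called it (adjusted p = 0.00451), as did edgeR with no filter on low counts (0.0492), and leaving out 1 passage at a time from the blocked design gave 0.60 to 0.76.

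Bsg was at 219.9, 248 and 248.5 CPM in DMSO at the 3 passages and at 334, 333 and 317 CPM with 10 µM. The treated libraries again lay above the DMSO libraries, with log2 ratios of 0.60, 0.42 and 0.35 within passages 12, 14 and 18. The log2 fold change was 0.46 ± 0.10 (SE, adjusted p = 0.0836) without the block and 0.46 ± 0.07 (adjusted p = 1.50e-05) with it.

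Slc16a1, whose product is carried to the membrane by basigin, read 122.5, 117.5 and 92.5 CPM in DMSO and 130.3, 133 and 88.2 CPM with 10 µM. The groups overlapped, and the blocked 95% interval of the log2 fold change ran from -0.06 to 0.20. Ldhb was at 8.71, 7.41 and 8.43 CPM in DMSO and at 8.26, 6.61 and 7.88 CPM with 10 µM, with a blocked interval from -0.36 to 0.14. The ratio of Bsg to Slc16a1 per kilobase was 5.21, 6.13 and 7.79 in DMSO and 7.44, 7.26 and 10.4 with 10 µM, and Ldha was 99.1, 99.4 and 99.2% of the LDH subunit level at 10 µM.

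Slc16a3 could not be tested for its low counts. It had 22 counts (0.556 CPM) at 10 µM in passage 12, 2 counts in passage 14 and 0 counts in passage 18, so its level above 2 counts rests on 1 library. Slc16a7 had 0 counts in each library at 10 µM.

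**Figure D4:**
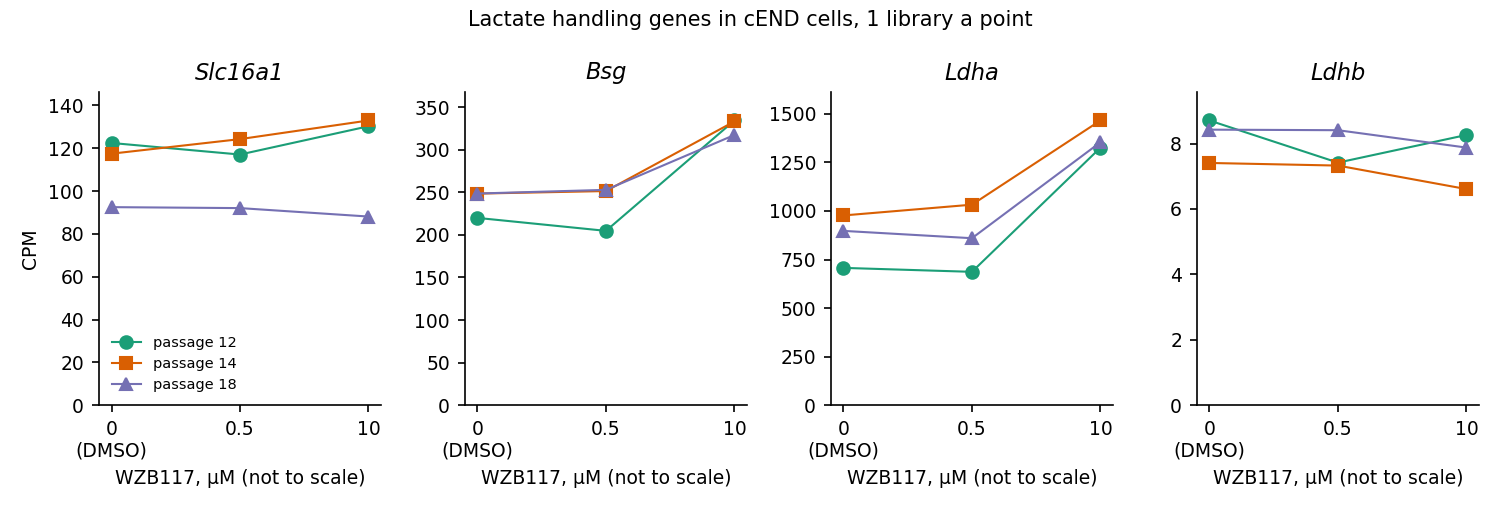
CPM of 4 genes in each cEND library against WZB117 dose (0 is DMSO; the dose axis is not to scale), with 1 line for each of passages 12, 14 and 18. Ldha runs from 687 to 1032 CPM without drug or at 0.5 µM and from 1325 to 1465 CPM at 10 µM, Bsg from 205 to 253 and from 317 to 334 CPM, and the passage 18 line is the lowest for Slc16a1.

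At 0.5 µM no difference was detected, and the DMSO and 0.5 µM libraries of each tested gene overlapped, where 2.80% of all genes tested did not. Ldha read 687, 1032 and 859.5 CPM at passages 12, 14 and 18 and Bsg 205, 251 and 253 CPM, beside the DMSO values above. The blocked 95% intervals against DMSO were -0.15 to 0.14 for Ldha, -0.16 to 0.12 for Bsg, -0.13 to 0.13 for Slc16a1 and -0.33 to 0.17 for Ldhb on the log2 scale. No gene passed at this dose by edgeR with or without the block (0% of 15466, with 55 and 219 at an unadjusted p under 0.05), and DESeq2 called 0 genes. Between 10 and 0.5 µM the log2 fold change was 0.68 ± 0.16 for Ldha and 0.47 ± 0.10 for Bsg, neither of which passed (197 genes did, 1.27%), and with the block 0.70 ± 0.07 (adjusted p = 1.73e-07) and 0.48 ± 0.07 (adjusted p = 9.22e-06), where 17.8% of genes passed (9.28% higher, 8.55% lower). This comparison shares its treated libraries with that of 10 µM and DMSO.

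Of the glycolysis genes tested at 10 µM, 6 of 14 were higher than in DMSO without the block and 13 of 14 with it, none lower (median 0.64 and 0.65). Slc2a1, whose protein WZB117 inhibits, was at 84.6 ± 14.4 CPM in DMSO and 319 ± 50.8 CPM at 10 µM (SD, n = 3), a log2 fold change of 1.92 ± 0.19 (adjusted p = 0.00309). Hk1, the hexokinase of the outer mitochondrial membrane, was 0.73 ± 0.10 higher and Pfkl, a phosphofructokinase, 1.19 ± 0.19. Of 13 genes of mitochondrial pyruvate entry and use, Pdk1 passed (1.40 ± 0.20, adjusted p = 0.0128) and 12 did not. With the block 3 passed, all higher. None of 4 other SLC16 carriers passed without the block (1 lower with it), none of 3 ketone genes (1 higher with it) and none of 10 shuttle genes (2 lower with it). The summed endothelial markers took 0.698 to 0.885% of counts in DMSO and 0.696 to 0.932% at 10 µM.

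Between passages, Slc16a1 had the largest difference of the 4 genes tested. At passage 18 Slc16a1 was at 92.5, 92.1 and 88.2 CPM with DMSO, 0.5 and 10 µM, below all 3 libraries of passage 12 (122.5, 117 and 130.3 CPM). The groups did not overlap, as for 35.6% of genes. The log2 fold change between passage 18 and passage 12 was -0.44 ± 0.06 (SE, adjusted p = 4.40e-06), with treatment as a term. Of all genes 35.1% passed, 15.9% higher and 19.2% lower.

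Ldha was 0.23 ± 0.07 higher at passage 18 than at passage 12 (adjusted p = 0.0140). The call ended without DMSO at passage 12 (adjusted p = 0.117) or 18 (0.0946), without 0.5 µM at passage 12 (0.126) and with no term for treatment (0.738). Bsg was at 0.13 ± 0.07 (adjusted p = 0.137) and passed without the 10 µM libraries (0.24 ± 0.06, adjusted p = 0.00208), and Ldhb was at 0.02 ± 0.12.

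At passage 14, against the mean of passages 12 and 18, Slc16a1 was 0.24 ± 0.05 higher (adjusted p = 0.00148). Its passage 14 libraries read 117.5, 124 and 133 CPM with DMSO, 0.5 and 10 µM, overlapping those of passage 12 (122.5, 117 and 130.3 CPM). The lower passage 18 libraries (92.5, 92.1 and 88.2 CPM) enter the mean, so this difference is not separate from that between passages 18 and 12. Ldha was 0.28 ± 0.06 higher (adjusted p = 0.00103). Of all genes 25.0% passed there, 12.9% higher and 12.1% lower. Ldha lost the call without 0.5 µM at passage 14 (adjusted p = 0.0766) and with no term for treatment (0.651). Ldhb, at -0.20 ± 0.11, did not pass (adjusted p = 0.185). Its 3 libraries of passage 14 lay below the other 6, as was so in one direction or the other for 12.0% of genes. The closest pair was 7.407 CPM (DMSO, passage 14) against 7.417 CPM (0.5 µM, passage 12). For Slc16a1 and Ldha the passage 14 libraries overlapped the other 6. All 12 endothelial markers were higher at passage 18 than at passage 12 (median 0.34), where 15.9% of all genes were. At passage 14, 7 of 12 were lower and 2 higher. The part of these markers in the differences was not tested. Each passage is 1 culture history, so passage cannot be told apart from anything else that differed between those cultures.

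**Figure D5:**
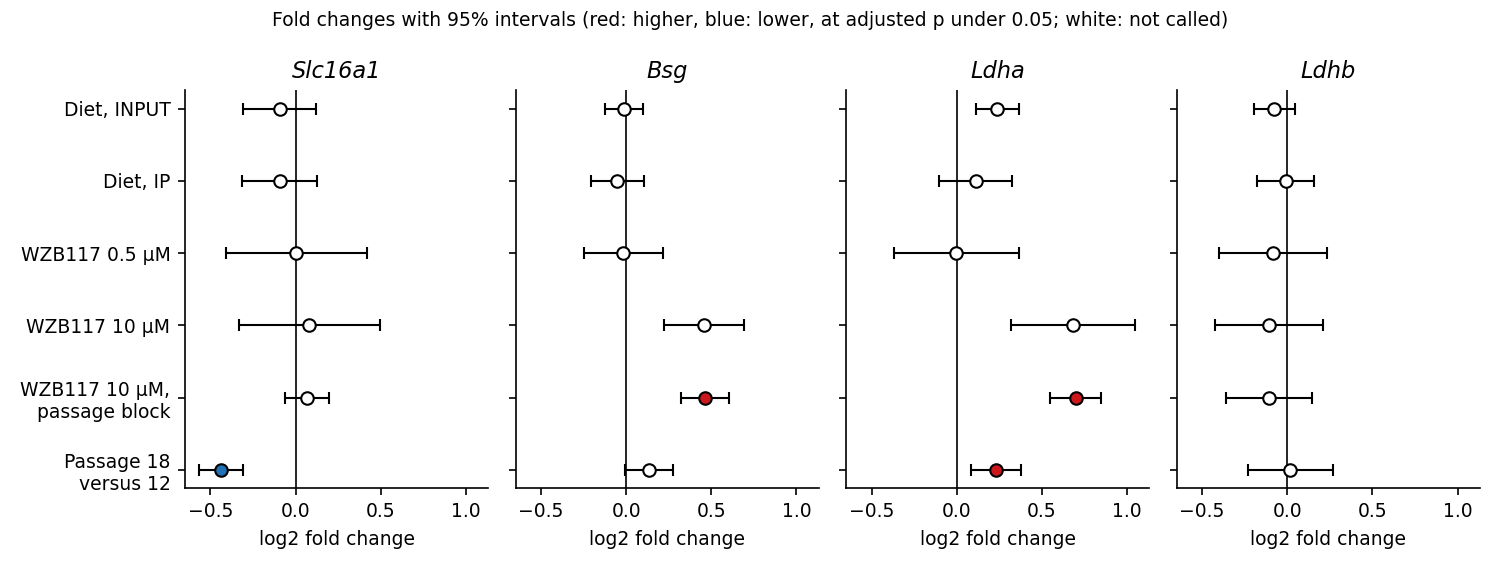
Log2 fold changes (points) with 95% intervals for 4 genes under diet in either fraction, WZB117 dose and passage; filled points passed an adjusted p of 0.05 (red higher, blue lower). The intervals of Ldha and Bsg at 10 µM WZB117 narrow with passage as a block, from 0.32 to 1.05 down to 0.55 to 0.84 for Ldha, and Slc16a1 is called only for passage.

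The genes whose levels followed each of these most closely are named by Pearson's r of log2 CPM over libraries, the 2 highest in each table. These values describe libraries that share fraction or passage, and say nothing of shared function. Over the 16 hypothalamus libraries they were Pdhx (r = 0.978), a subunit of the pyruvate dehydrogenase complex, and Mcrip2 for Slc16a1, Raph1 (0.997) and Ctnna2 for Slc16a7, and Stk16 (0.858) and Kctd6 for Slc16a3. For Bsg they were Grina (0.992) and Otx1, for Ldha Gatc (0.956) and Tfg, and for Ldhb Agtrap (0.998) and Ckb, the brain creatine kinase (0.997). Over the 9 cEND libraries, Ldha was followed most closely by P4ha1 (0.996), a collagen prolyl hydroxylase subunit, and the glycolytic enzyme Pgam1 (0.994), and Bsg by Selenbp1 (0.995) and March6 (0.994). Slc16a1 was followed by the chaperone Hsp90aa1 (0.990) and Nudt19 (0.987), and Ldhb, less closely, by Ifi44l (0.940) and Zfp277 (0.934).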

How the data were processed

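RNA sequencing libraries of mouse hypothalamus (16) and cEND cells (9) were deposited by the authors as 2 tables of estimated counts per Ensembl gene, not scaled to a common total. The submitters' processing notes name GRCm38, and the counting program and annotation release are not given in the sources used here. Estimated counts were rounded to whole numbers (17.4 and 19.8% of values were not whole). They were fitted with edgeR 4.0.16 in R 4.3.3 (TMM, filterByExpr by group, robust quasi-likelihood), 2-sided, with Benjamini-Hochberg adjustment over all genes tested. DESeq2 1.42.0 was an alternative. Lengths came from GENCODE M21. The scripts were tested on simulated counts. IP and INPUT libraries, and CD and HFD libraries, share only numbers in the labels. The cEND numbers are passages, taken as pairing the libraries because the labels name the passage and every same-passage correlation was above 0.1. Members and lists were chosen with earlier results of these data known, and lists give up to 3 genes of smallest p per comparison, of which 1 is not reported here. Where nothing says that libraries come from separate cultures, p-values measure only the spread between them.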

Additional observations from a re-analysis of the deposited data

Results flagged for a closer look

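Of 24 sets of 4 pools (6 genes in 4 groups), 4 held a pool that stood apart from the other 3 by more than Dixon's 95% critical value for the gap over the range of 4 values. Chance flags about 1 group in 20. Slc16a3 in HFD INPUT was 0.258 CPM in the second pool, against 0.5015 CPM or more in the others. Slc16a7 in CD IP was 2.93 CPM in the fourth pool, against 2.11 CPM or less. Ldhb in HFD IP was 777 CPM in the fourth pool, against 683 CPM or less. Bsg in CD INPUT was 101 CPM in the fourth pool, against 103 CPM in the others, a set with an SD of 1.07 CPM.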

How the results depend on the processing

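The 5 calls of IP versus INPUT kept their direction and their side of the threshold in each of 23 alternatives (other scaling, DESeq2, no filter, pool as a block, 1 diet, each library left out). Leaving out libraries gave 5 to 6 genes called there. Over all results of single genes, 624 of 693 alternative values kept direction and call, 23 gained a call, 6 lost one and 40 changed sign, all 40 among values that were not called. Causes were not tested.

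Genes passing for HFD versus CD in IP were 14 as reported, 159 with DESeq2, 398 with no filter on low counts, 52 with the replicate number as a block, 121 in a fit of all 16 libraries and 5 to 50 with 1 library left out. In INPUT they were 6, then 52, 116, 43 and 2 in the same order, and 2 to 17 with 1 library left out. Without a filter 1 of the 6 genes, Ldha, passed in INPUT. The interaction gave 4 calls with DESeq2, 1 with no filter, 1 with the pool as a block and 0 to 1 with 1 library left out. With the replicate number or pool as a block no call on the 6 genes changed in the hypothalamus data. Same-numbered libraries correlated at 0.0289 to 0.278 in their deviations from the group means, and 4, 3, 3 and 4 of 4 correlated best with their own number in the pairs CD INPUT and IP, HFD INPUT and IP, CD and HFD IP, and CD and HFD INPUT.

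For WZB117 at 10 µM versus DMSO, 197 genes passed as reported, 535 with DESeq2 and 2864 with passage as a replicate block. With 1 library left out 38 to 195 passed, and 1628, 2412 and 1998 in the blocked design without passage 12, 14 or 18, an alternative added after the data were seen. Of the 4 genes tested, 0 were called as reported and 2 with DESeq2 and with the block (each passage left out included). With no filter 6 were tested and 1 was called. For 10 versus 0.5 µM, 197 passed, 528 with DESeq2, 2759 with the block, 79 with only the 2 groups and 33 to 152 with 1 library left out. Under DESeq2 and under the block these held 2 of the 4 genes tested. For passage 18 versus 12, 5422 passed as reported, with 2 of the 4 genes tested, and 3269 with no term for treatment, with 1 of the 4. With 1 library left out 1 to 3 of the genes followed here passed. For passage 14, 3861 passed as reported, with 2 of the 4 genes tested, and 1837 with no such term, with 1 of the 4. With 1 library left out 2446 to 3880 passed, with 1 to 2 of the genes followed here.

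Signs changed for values near 0. Ldha at 0.5 µM versus DMSO was 0.00506 on the log2 scale with DESeq2 size factors and with DESeq2, and 0.00971 with no filter. With 1 library left out, the log2 diet effect in IP ran from -0.0514 to 0.16 for Slc16a7, -0.0664 to 0.0618 for Ldhb, -0.16 to 0.00301 for Slc16a1 and -0.00972 to 0.16 for Ldha, and in INPUT from -0.0478 to 0.0164 for Bsg. The interaction ran from -0.0852 to 0.0817 for Slc16a1 and -0.00216 to 0.12 for Ldhb. At 10 µM Slc16a1 ran from -0.0302 to 0.25, and against 0.5 µM from -0.0383 to 0.24, with Ldhb from -0.0919 to 0.0643. At 0.5 µM the ranges were -0.15 to 0.14 for Ldha, -0.0705 to 0.0830 for Bsg and -0.11 to 0.12 for Slc16a1. For passage 18 versus 12 Ldhb ran from -0.0540 to 0.0745.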
